A study of Mus musculus with 45 samples.

Results

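Gata1, Gata2 and Zfpm1 are 3 genes of the erythroid GATA circuit, taken by their symbols from a deposited table of 13449 genes, and each of the 3 had a row. Their transcripts were followed in E15.5 mouse fetal livers in which Rpl5 or Rps19, genes for a large-subunit and a small-subunit ribosomal protein, carried a floxed allele over a wild-type allele. The 4 genotypes were VavCre Rpl5flox/+, its control Rpl5flox/+, VavCre Rps19flox/+ and its control Rps19flox/+. All of them carried a floxed allele, and the controls lacked Cre. VavCre expresses Cre from the Vav promoter in hematopoietic cells, so deletion was limited to that compartment by design. Each VavCre genotype set against its control is called the Rpl5 line or the Rps19 line below. Cells were held in emetine, an inhibitor of translation elongation, at 25 µg/mL for 15 min. Kit+ cells, which are progenitors, were bound to magnetic beads first, and Ter119+ cells, which are erythroblasts and red cells, were taken from what did not bind. Cells of 1 genotype were pooled in equal numbers before lysis, and the lysates were run on sucrose gradients, from which poly(A) RNA of a cytoplasm fraction and a polysome fraction was sequenced. How the cytoplasm fraction was bounded, and how many fetuses went into a pool, was not given in the sources used here, so p-values measure the spread between pools. The 16 combinations of genotype, cell type and fraction had 3 libraries each in 14 cases, while VavCre Rpl5flox/+ Kit+ polysomes had 1 and Rpl5flox/+ Ter119+ polysomes had 2, giving 45 libraries.

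GATA1 is the zinc-finger transcription factor that drives erythroid differentiation, and GATA2 is its relative in stem and progenitor cells and in mast cells. Zfpm1 encodes FOG1, a cofactor that binds GATA1 and recruits repressor complexes. In the GATA switch, GATA1 with FOG1 replaces GATA2 at shared sites, Gata2 among them, and Gata2 transcription falls as erythroid cells mature. In Diamond-Blackfan anemia, caused by loss of a copy of a ribosomal protein gene, a model from human cells holds that lowered ribosome levels impair translation of GATA1 mRNA, which would appear as fewer GATA1 transcripts on polysomes for the amount in the cell. The design gives 2 readouts that bear on this, the level of each transcript and its ratio of polysome to cytoplasm in the same pool.

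The files name genes and give no sequence, so the promoters were taken from RefSeq (GRCm38.p6), which matched 3 of 3 genes. The Gata1 and Gata2 windows are shown because these transcripts moved in opposite directions, and each is the 250 bases before an annotated start. Capitals mark CACCC, a box bound by Krüppel-like factors such as KLF1, on either strand. The 6-base GATA motif was searched as AGATAA or AGATAG, and likewise TGATAA or TGATAG, on both strands. AGATAG and TGATAG can share its last base with the complement of CACCC. These GATA letters were in 0 of the 3 windows shown, so no overlap occurred there.
Gata1, chrX:7967911-7968160, minus strand: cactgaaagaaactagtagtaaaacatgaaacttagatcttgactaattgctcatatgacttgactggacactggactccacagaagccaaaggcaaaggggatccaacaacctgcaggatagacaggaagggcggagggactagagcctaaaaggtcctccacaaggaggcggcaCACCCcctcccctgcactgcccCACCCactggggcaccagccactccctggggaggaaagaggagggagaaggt
Gata2, first start, chr6:88193641-88193890, plus strand: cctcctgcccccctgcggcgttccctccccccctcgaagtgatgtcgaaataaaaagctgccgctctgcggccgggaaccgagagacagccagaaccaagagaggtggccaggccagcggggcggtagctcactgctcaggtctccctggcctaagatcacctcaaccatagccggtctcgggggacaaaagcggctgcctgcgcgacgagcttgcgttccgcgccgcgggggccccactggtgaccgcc
Gata2, second start, chr6:88198414-88198663, plus strand: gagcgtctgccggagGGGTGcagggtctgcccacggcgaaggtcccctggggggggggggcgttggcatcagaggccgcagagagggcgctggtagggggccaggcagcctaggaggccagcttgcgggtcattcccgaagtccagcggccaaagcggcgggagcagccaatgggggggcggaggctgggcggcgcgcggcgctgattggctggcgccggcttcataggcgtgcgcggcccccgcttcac
The Gata1 window held 2 CACCC boxes, the second Gata2 window held 1 and the first held 0, and the Zfpm1 window, on chromosome 8 from 122281891 to 122282140, held 3. Among 32851 RefSeq promoters cut in the same way, 52.0% held a CACCC box and 26.5% held a GATA motif. The Gata1 window lies inside the span of the gene (X, 7959260 to 7976663), since a longer model starts further out. The second Gata2 window and the Zfpm1 window also lie inside the spans of their genes, and the first Gata2 window lies before its gene. Gata2 spans 88193891 to 88207032 on chromosome 6, and Zfpm1 spans 122281856 to 122337862 on chromosome 8.

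Values are reads divided by the authors' size factor for each library, called normalized counts here, and tests used limma on the deposited log2 values with Benjamini-Hochberg adjustment over all genes at a threshold of 0.05. A change is given as log2 with its standard error (SE). Where 3 libraries are set against 3, groups that do not overlap reach a two-sided exact permutation p of 0.1, the smallest for that size. The share of all genes whose groups did not overlap was not counted. Library sizes are given in M reads, with 1 M for 1e+06. Cytoplasm libraries held 22.9 to 123.5 M reads and polysome libraries 1.0 to 39.8 M, and 4 polysome libraries held under 2 M. Kit had 3.54 to 83.4 normalized counts in control Ter119+ cytoplasm, 721 to 852 in Ter119+ cytoplasm labelled VavCre Rpl5flox/+ and 230 to 363 in VavCre Rps19flox/+ Ter119+ cytoplasm, all below the 1382 to 1971 of Kit+ cytoplasm. Rpl5 had 437 to 579 normalized counts in VavCre Rpl5flox/+ Kit+ cytoplasm against 930 to 1112 in Rpl5flox/+. Ter119+ cytoplasm was at odds with its label for Rpl5, which had 455 to 549 normalized counts in the libraries labelled VavCre Rpl5flox/+ against 295 to 459 in Rpl5flox/+ (log2 0.44, SE 0.16, limma adjusted p = 0.0278). This change was higher than that of 59.8% of genes, where 65.5% of all genes were called. The median change of all genes there was 0.16, or 0.57 with libraries rescaled. Rps19 rose by more than Rpl5 in the same comparison (log2 1.08, SE 0.14), and Cdkn1a rose by 5.72 (SE 0.13). In the floxed controls Rpl5 changed by -1.41 (SE 0.11) on the log2 scale from Kit+ to Ter119+ cytoplasm. The part of progenitor RNA in these Rpl5 values was not tested. Rps19 had 11750 to 14495 in VavCre Rps19flox/+ Kit+ cytoplasm against 16201 to 20143 in Rps19flox/+, and in Ter119+ cytoplasm 10787 to 13710 against 13048 to 15378, a difference that did not pass the test (limma adjusted p = 0.302). Cdkn1a, a p53 target, rose in each of the 4 cytoplasm comparisons by 4.99 to 6.39 on the log2 scale.

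The switch was first read in the floxed controls. In control Ter119+ cytoplasm, Gata1 had 10688, 12368 and 9841 normalized counts in Rpl5flox/+ and 9240, 9648 and 11061 in Rps19flox/+. In control Kit+ cytoplasm it had 3317, 3007 and 3480 in Rpl5flox/+ and 3389, 3169 and 3601 in Rps19flox/+. Every Ter119+ library lay above every Kit+ library. Gata1 was 3.13 times as high in Ter119+ (log2 1.65, SE 0.08, limma adjusted p = 2.46e-14).
Gata2 ran the other way, with 26.96, 46.59 and 46.18 normalized counts in Rpl5flox/+ and 26.92, 22.55 and 45.96 in Rps19flox/+ Ter119+ cytoplasm. Control Kit+ cytoplasm held 161, 146 and 225 in Rpl5flox/+ and 142, 194 and 202 in Rps19flox/+. The groups did not overlap, and Gata2 fell by 1.97 on the log2 scale (SE 0.16, limma adjusted p = 1.67e-10).
Zfpm1 rose with Gata1. It had 12275 to 19260 normalized counts over the 6 control Ter119+ libraries against 1991 to 2781 over the 6 Kit+ libraries, a 6.23-fold difference (log2 2.64, SE 0.12, limma adjusted p = 6.66e-15). This comparison called 80.3% of all genes, so being called was common to most genes, and the median change of all genes was -0.14. With libraries rescaled to an equal median over genes of at least 500 normalized counts that median was -0.59, and the 3 members kept their directions and calls.
On control polysomes Gata1 rose by 2.15 (SE 0.23, limma adjusted p = 3.23e-07) and Zfpm1 by 3.00 (SE 0.31, limma adjusted p = 2.0e-07), with 24.9% of all genes called. Gata2 on polysomes had 0 to 79 reads per control library, and its change of -0.72 had an SE of 1.00.

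**Figure D1:**
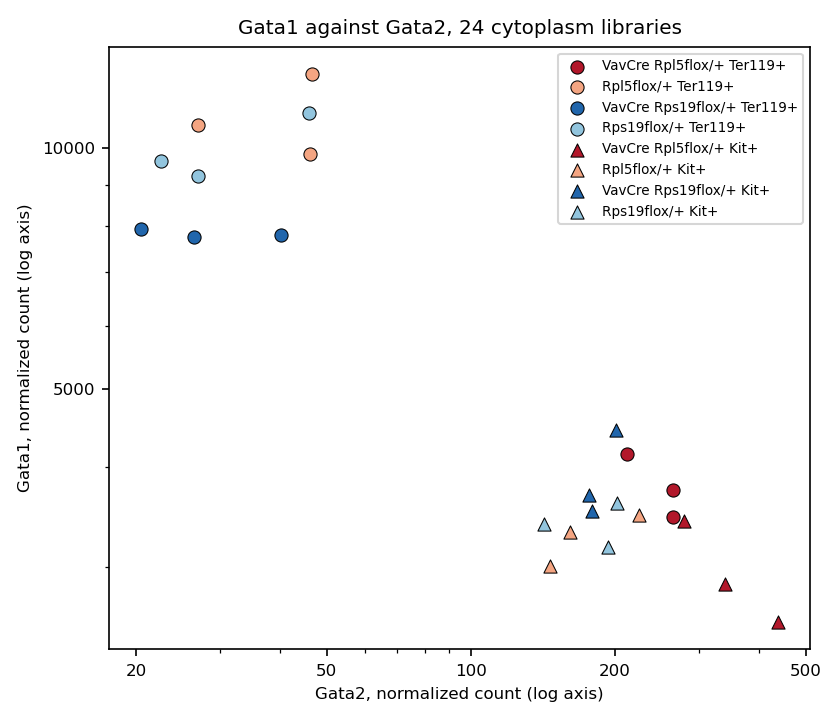
Gata1 against Gata2 in the 24 cytoplasm libraries, both axes in normalized counts on a log scale, with circles for Ter119+ and triangles for Kit+. The 9 Ter119+ libraries other than those labelled VavCre Rpl5flox/+ sit at the upper left, and the 3 labelled VavCre Rpl5flox/+ Ter119+, at 3465 to 4149 for Gata1 and 212 to 264 for Gata2, sit with the Kit+ libraries.

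The log2 ratio of Gata1 to Gata2, computed as log2(Gata1 + 1) minus log2(Gata2 + 1), puts the switch in a single value per library. It is compared between groups of libraries only, since gene lengths were not divided out. In control cytoplasm it was 8.21 ± 0.40 in Ter119+ and 4.23 ± 0.23 in Kit+ (SD, n = 6 each). The difference of 3.97 had p = 0.00216 in a two-sided exact permutation test, the smallest p that 6 against 6 can give. The test took the libraries as independent and held neither line nor replicate number. Same-numbered Ter119+ and Kit+ cytoplasm libraries deviated together in Rps19flox/+ and VavCre Rpl5flox/+. In the VavCre genotypes it was 6.01 ± 2.30 in Ter119+ and 3.73 ± 0.79 in Kit+ (SD, n = 6 each), a difference of 2.28 with p = 0.0649 in the same exact permutation test. That test took both lines together, so the gap between them entered its spread. The VavCre libraries fell apart by line, and within each line every Ter119+ value lay above every Kit+ value. The libraries labelled VavCre Rpl5flox/+ had 3.82, 3.71 and 4.28 in Ter119+ and 3.07, 2.54 and 3.62 in Kit+. VavCre Rps19flox/+ had 7.57, 8.53 and 8.14 in Ter119+ and 4.46, 4.29 and 4.37 in Kit+. The Ter119+ ratios of the 2 lines did not overlap, and those labelled VavCre Rpl5flox/+ lay within the range of the control Kit+ libraries, 3.95 to 4.56, in 1 of 3 cases and below it in 2.

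The step itself was then compared between genotypes. For Gata1 the step of Ter119+ over Kit+ was smaller by 1.37 on the log2 scale in the libraries labelled VavCre Rpl5flox/+ than in Rpl5flox/+ (SE 0.17, limma adjusted p = 1.26e-06). The Gata2 step was 1.36 higher, that is less of a fall (SE 0.32, limma adjusted p = 0.00158), and the Zfpm1 step was 1.52 lower (log2 -1.52, SE 0.25, limma adjusted p = 3.75e-05). All 3 members were among the 48.4% of genes called there. With VavCre Rps19flox/+, 12.3% of genes were called. The Zfpm1 step was smaller, at -1.17 (SE 0.25, limma adjusted p = 0.00525), and the Gata2 step differed by -0.15 (SE 0.32, limma adjusted p = 0.807). The Gata1 step differed by -0.54 (SE 0.17, limma adjusted p = 0.0358), and this call was lost on removal of any of 8 of the 12 libraries, taken singly, and with libraries rescaled (log2 -0.29, limma adjusted p = 0.257).

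**Figure D2:**
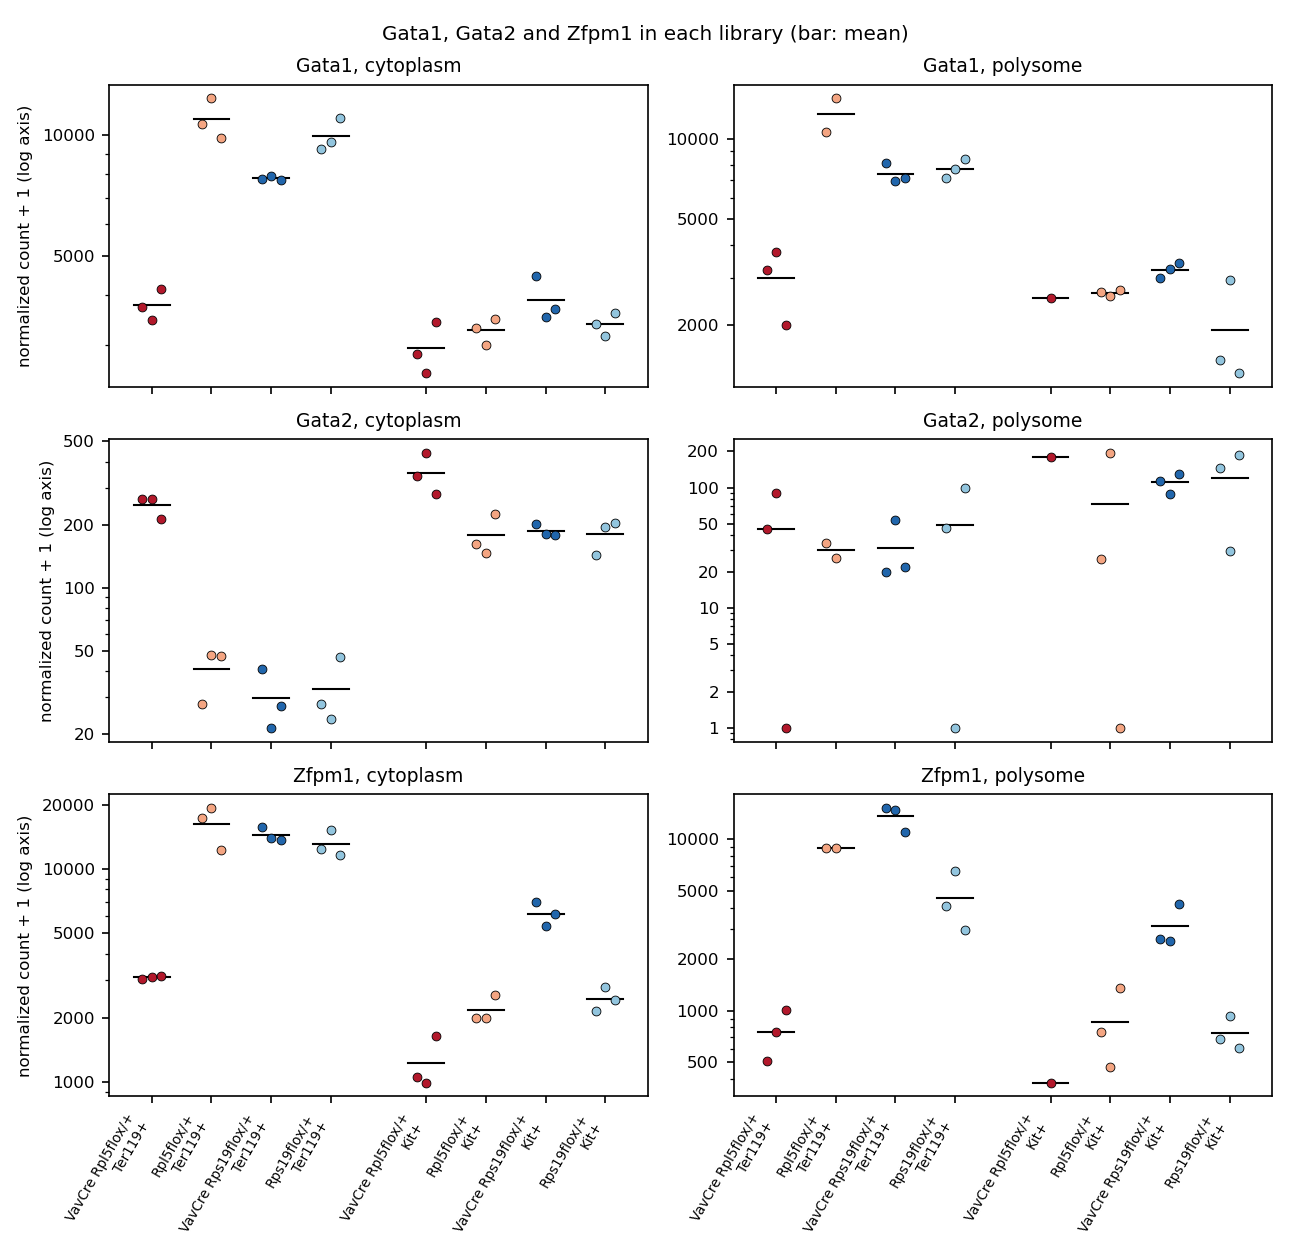
Normalized count plus 1 of each member in every library, on a log axis, in cytoplasm (left) and polysome (right), with a black bar at the mean of each group. Among Ter119+ cytoplasm libraries Gata1 and Zfpm1 are lowest and Gata2 is highest in those labelled VavCre Rpl5flox/+, and Zfpm1 is high in VavCre Rps19flox/+ Kit+ cytoplasm.

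In Kit+ cytoplasm the 2 lines moved Zfpm1 in opposite directions. In the Rpl5 line Zfpm1 had 1059, 994 and 1644 normalized counts in VavCre Rpl5flox/+ against 1994, 1991 and 2565 in Rpl5flox/+, a log2 change of -0.84 (SE 0.17, limma adjusted p = 0.00174). In the Rps19 line it had 6963, 5413 and 6145 in VavCre Rps19flox/+ against 2149, 2781 and 2421 in Rps19flox/+, a 2.51-fold rise (log2 1.33, SE 0.17, limma adjusted p = 3.35e-05). Neither pair of groups overlapped. The Rpl5 effect minus the Rps19 effect was -2.17 (SE 0.24, limma adjusted p = 2.17e-05), lower than for all but 0.13% of genes.
Gata2 rose in the Rpl5 line, with 339, 438 and 278 normalized counts in VavCre Rpl5flox/+ against 161, 146 and 225 in Rpl5flox/+ (log2 0.93, SE 0.18, limma adjusted p = 0.00157). In the Rps19 line it had 201, 179 and 177 against 142, 194 and 202, and the groups overlapped (log2 0.06, SE 0.18). The difference between the lines was 0.87 (SE 0.26, limma adjusted p = 0.014).
Gata1 itself did not pass the test in either line. It had 2853, 2560 and 3423 normalized counts in VavCre Rpl5flox/+ against 3317, 3007 and 3480 in Rpl5flox/+ (log2 -0.16, 95% interval -0.40 to 0.09), and 4450, 3517 and 3683 in VavCre Rps19flox/+ against 3389, 3169 and 3601 in Rps19flox/+ (log2 0.19, 95% interval -0.05 to 0.43). The line difference for Gata1 was -0.35 (SE 0.16, limma adjusted p = 0.0854). Of all genes, 37.2% were called in the Rpl5 line, 53.7% in the Rps19 line and 48.2% between the lines. The median of all genes was 0.03 and 0.01 in the 2 genotype comparisons, and -0.13 for the Rps19 line with libraries rescaled.

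Markers of other cell types moved with these changes in Kit+ cells. The share of all genes called was 37.2% in the Rpl5 line and 53.7% in the Rps19 line. A count of markers near or below that share is not particular to its list. Granulocyte and monocyte markers summed to 47162 to 87515 normalized counts in VavCre Rpl5flox/+ against 22239 to 24376 in Rpl5flox/+, with 7 of 11 measured markers called higher. Mast cell and basophil markers, of a lineage that uses GATA2, summed to 663 to 1552 in VavCre Rpl5flox/+ against 447 to 573 in Rpl5flox/+, with 4 of 7 higher. Eosinophil markers, of a lineage that uses GATA1, summed to 872 to 1501 against 610 to 748, with 3 of 4 higher. Erythroid markers fell in 9 of 9 cases and summed to 72055 to 78879 in VavCre Rpl5flox/+ against 193302 to 274126 in Rpl5flox/+. In the Rps19 line 3 of 9 erythroid markers fell, and the list summed to 100861 to 177823 in VavCre Rps19flox/+ against 178011 to 312943 in Rps19flox/+. Myeloid lists were lower there. Granulocyte and monocyte markers summed to 3505 to 7401 in VavCre Rps19flox/+ against 16008 to 20392 in Rps19flox/+ (11 of 11 fell), and mast cell and basophil markers to 69.7 to 140.8 against 370.3 to 437.0 (5 of 7 fell). Eosinophil markers summed to 43.1 to 59.1 against 553.2 to 741.2 (4 of 4 fell), and no marker of these lists was at 0 in every library of a group. B-lymphoid markers fell in both lines (6 of 6 each), and stem and progenitor markers had 4 of 7 tested higher in the Rpl5 line and 5 of 7 lower in the Rps19 line. Hepatocyte markers summed to 20994 to 38725 in VavCre Rpl5flox/+ against 5408 to 17383 in Rpl5flox/+ (8 of 8 rose), while 0 of 8 passed in the Rps19 line. Of 10 tested megakaryocyte and platelet markers, of a lineage that needs GATA1 and FOG1, 1 rose and 4 fell in the Rpl5 line and 9 fell in the Rps19 line. Macrophage markers (7 tested) had 1 higher in the Rpl5 line and 1 higher and 1 lower in the Rps19 line, and endothelial markers (7 tested) had 2 higher in the Rpl5 line and 1 lower in the Rps19 line. The part of these cells in the Gata2 and Zfpm1 values was not tested. In bulk libraries fewer cells of a type and less RNA per cell cannot be told apart.

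In Ter119+ cytoplasm all 3 members changed in the Rpl5 line. Gata1 had 3736, 3465 and 4149 normalized counts in the libraries labelled VavCre Rpl5flox/+ against 10688, 12368 and 9841 in Rpl5flox/+, 2.89 times lower (log2 -1.53, SE 0.13, limma adjusted p = 3.31e-07). Zfpm1 had 3047, 3124 and 3147 against 17312, 19260 and 12275, 5.13 times lower (log2 -2.36, SE 0.16, limma adjusted p = 8.01e-08). Gata2 had 264, 264 and 212 in the libraries labelled VavCre Rpl5flox/+ against 26.96, 46.59 and 46.18 in Rpl5flox/+ (log2 2.29, SE 0.27, limma adjusted p = 5.81e-06). No library of either group reached the other group for any member. This comparison called 65.5% of all genes, with a median change of 0.16, or 0.57 with libraries rescaled.
None of the 3 passed the test in the Rps19 line, beside 25.8% of all genes that did. Gata1 had 7788, 7922 and 7741 normalized counts in VavCre Rps19flox/+ against 9240, 9648 and 11061 in Rps19flox/+. The Gata1 change of -0.35 (SE 0.13) had a limma adjusted p of 0.0577. It passed when the 2 groups were fitted alone (limma adjusted p = 0.0299). Gata2 had 40.06, 20.49 and 26.37 in VavCre Rps19flox/+ against 26.92, 22.55 and 45.96 in Rps19flox/+ (95% interval of the log2 change -0.66 to 0.48). Zfpm1 had 15750, 13976 and 13697 against 12346, 15150 and 11587 (95% interval -0.19 to 0.51).
The difference between the lines in Ter119+ cytoplasm was -1.18 for Gata1 (SE 0.18, limma adjusted p = 0.000238), 2.38 for Gata2 (SE 0.38, limma adjusted p = 0.000322) and -2.52 for Zfpm1 (SE 0.23, limma adjusted p = 1.69e-05), with 41.5% of all genes called.

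The Ter119+ libraries labelled VavCre Rpl5flox/+ also had higher levels of progenitor markers. The counts of markers below stand beside 65.5% of all genes called in the Rpl5 line and 25.8% in the Rps19 line. Kit, the antigen used to remove progenitors before the Ter119 beads, had 721 to 852 normalized counts there against 25.8 to 83.4 in Rpl5flox/+. Stem and progenitor markers summed to 2917 to 3023 against 304 to 668, with 7 of 7 tested markers higher and Procr at 0 in every Rpl5flox/+ library. Mast cell and basophil markers summed to 656 to 1142 against 63.2 to 132.1. All 5 tested ones were higher, and Tpsb2 was at 0 in both groups. Erythroid markers, 9 of 9 lower, summed to 4927760 to 8832173 against 18587064 to 46008592. Kit was higher in the Rps19 line too, at 230 to 363 in VavCre Rps19flox/+ against 3.54 to 68.0 in Rps19flox/+ (limma adjusted p = 0.00163), while stem and progenitor markers had 2 called higher and 2 lower of 7 tested. Granulocyte and monocyte markers summed to 36112 to 72390 in the libraries labelled VavCre Rpl5flox/+ against 6475 to 11120 in Rpl5flox/+ (9 of 11 rose). The part of progenitor and myeloid cells in the member values was not tested.

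Ordered by mean cytoplasm level, Gata1 ran from 10966 in Rpl5flox/+ Ter119+ and 9983 in Rps19flox/+ Ter119+ through 7817 in VavCre Rps19flox/+ Ter119+ to 3883 in VavCre Rps19flox/+ Kit+ and 3783 in the libraries labelled VavCre Rpl5flox/+ Ter119+. Rps19flox/+ Kit+ at 3386, Rpl5flox/+ Kit+ at 3268 and VavCre Rpl5flox/+ Kit+ at 2945 closed the order. Library ranges of neighbours overlapped except on either side of VavCre Rps19flox/+ Ter119+. Gata2 was highest in VavCre Rpl5flox/+ Kit+ at 352 and next in the libraries labelled VavCre Rpl5flox/+ Ter119+ at 247. The other Kit+ groups, at 177 to 186, overlapped one another, as did the other Ter119+ groups at 29.0 to 39.9. Zfpm1 ran from 16282 in Rpl5flox/+ Ter119+, with overlapping ranges down to 13028 in Rps19flox/+ Ter119+, to 6174 in VavCre Rps19flox/+ Kit+ and 3106 in the libraries labelled VavCre Rpl5flox/+ Ter119+. Its control Kit+ groups, at 2451 and 2183, overlapped, and VavCre Rpl5flox/+ Kit+ was lowest at 1232, below every library of the other groups.

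**Figure D3:**
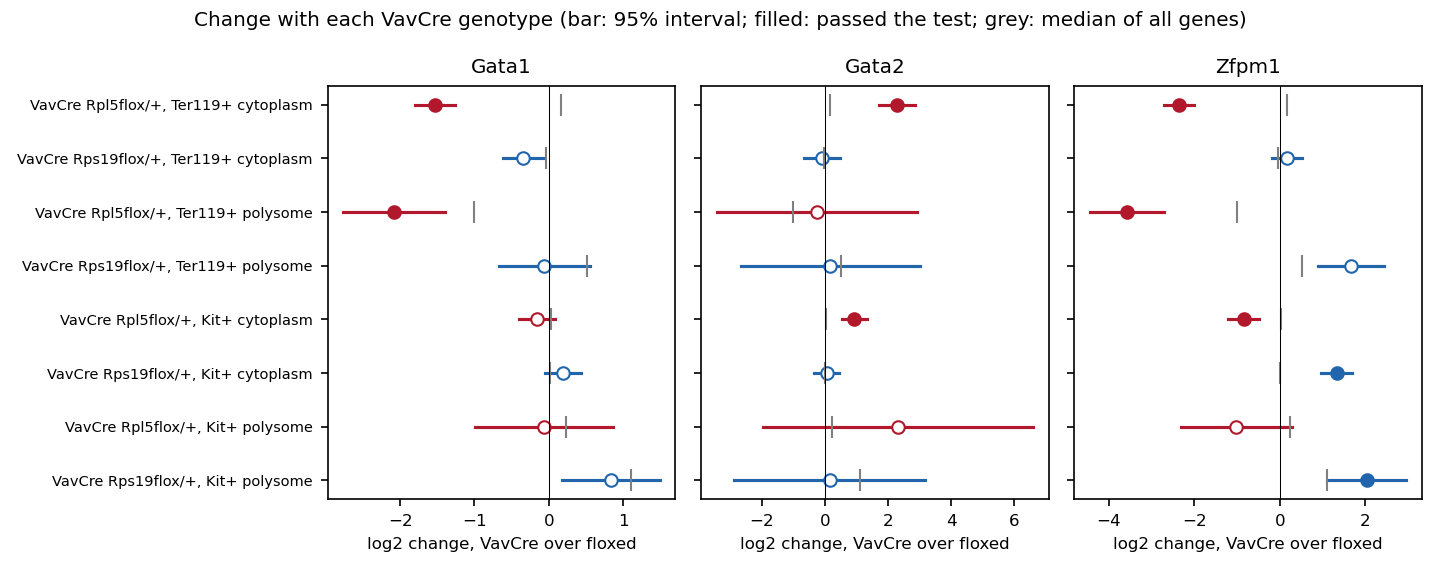
Log2 change of each member, VavCre over its floxed control, with its 95% interval, for each cell type and fraction, a filled circle where the change passed the test and a grey mark at the median change of all genes. The Ter119+ changes labelled VavCre Rpl5flox/+ lie furthest from the grey marks for Gata1 and Zfpm1.

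Polysome libraries were shallower and gave wider intervals. In Ter119+ polysomes Gata1 had 3210, 3774 and 2010 normalized counts in the libraries labelled VavCre Rpl5flox/+ against 10612 and 14251 in Rpl5flox/+ (log2 -2.08, SE 0.32, limma adjusted p = 0.001). Zfpm1 had 509, 750 and 1005 against 8849 and 8916 (log2 -3.58, SE 0.40, limma adjusted p = 0.000159). Of all genes 13.2% were called there and the median of all genes was -1.004. With libraries rescaled that median was -0.50. Rpl5 was higher, against the label, here as well, with 547, 410 and 6334 normalized counts in the libraries labelled VavCre Rpl5flox/+ against 110 and 226 in Rpl5flox/+. The 6334 came from replicate 3, a library of 1.02 M reads. This Rpl5 change did not pass the test (log2 2.73, SE 1.01, limma adjusted p = 0.096). Rps19 rose by 1.55 (SE 0.22, limma adjusted p = 0.000747) in the same comparison. Granulocyte and monocyte markers summed to 45132 to 116324 against 6730 to 10180, and hepatocyte markers to 40273 to 151964 against 20741 to 27428. Their part in these changes was not tested.
Gata1 in Ter119+ polysomes of the Rps19 line had 8123, 6967 and 7161 normalized counts in VavCre Rps19flox/+ against 7154, 7697 and 8397 in Rps19flox/+, and the groups overlapped (log2 -0.06, SE 0.28). Zfpm1 had 15240, 14769 and 11108 against 4068, 6554 and 2940. The Zfpm1 change of 1.66 (SE 0.36) did not pass the test (limma adjusted p = 0.0575), where 0.801% of all genes were called and their median was 0.51. It passed under 5 of the alternatives tried, among them voom on whole reads (log2 1.53, limma adjusted p = 0.00291).
In Kit+ polysomes in the Rps19 line, Zfpm1 had 2624, 2556 and 4211 normalized counts in VavCre Rps19flox/+ against 685, 936 and 609 in Rps19flox/+ (log2 2.04, SE 0.41, limma adjusted p = 0.0138), with 9.86% of all genes called and a median of 1.11. That call was lost on removal of any of the 3 VavCre Rps19flox/+ libraries, taken singly (limma adjusted p 0.054, 0.0544 and 0.0868). Gata1 had 2997, 3257 and 3415 against 1475, 2968 and 1323 (log2 0.84, SE 0.30, limma adjusted p = 0.0989), below the median change of all genes. Without replicate 2 of Rps19flox/+ the Gata1 change was 1.20 (limma adjusted p = 0.00378). That left control libraries of 1.01 and 1.83 M reads, with 71 and 100 Gata1 reads, against VavCre Rps19flox/+ libraries of 10.8 to 37.6 M reads.
The single VavCre Rpl5flox/+ Kit+ polysome library had 2541 normalized counts of Gata1 and 379 of Zfpm1, against 2660, 2576 and 2715 of Gata1 and 755, 468 and 1358 of Zfpm1 in Rpl5flox/+. None of the 3 members passed there, beside 1.82% of all genes, with the spread of that lone library taken from the remaining groups.

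Gata2 had 0 to 87 reads per polysome library outside VavCre Rps19flox/+ Kit+. Summed over libraries, it had 61 reads in Ter119+ polysomes labelled VavCre Rpl5flox/+, a normalized count of 76.5 (95% exact Poisson interval 58.5 to 98.3), against 15 reads in Rpl5flox/+, a normalized count of 28.5 (interval 15.9 to 46.9). The intervals cover counting error only. Of those 61 reads, 54 came from 1 library. In Kit+ polysomes the libraries had 112.45, 87.0 and 128.33 normalized counts in VavCre Rps19flox/+ (116, 213 and 517 reads) against 145.39, 28.7 and 185.28 in Rps19flox/+ (7, 15 and 14 reads). These groups overlapped, and the change of 0.15 on the log2 scale was -0.545 without replicate 2 of Rps19flox/+ and 1.53 without the polysome libraries under 2 M reads (limma adjusted p = 0.951, 0.782 and 0.33 for these values in order). Replicate 3 of the libraries labelled VavCre Rpl5flox/+ Ter119+ had 0 Gata2 reads, which allows up to 91.4 normalized counts (3 reads). Replicate 3 of Rpl5flox/+ Kit+ and replicate 2 of Rps19flox/+ Ter119+ also had 0, which allows up to 39.9 and 8.4. No Gata2 change on polysomes passed the test.

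The ratio of polysome to cytoplasm in the same pool is the readout closest to the translation model. It is the difference of the 2 log2 values of a pool, and since both fractions were scaled separately it ranks genes within a pool rather than giving the share of an mRNA on ribosomes. In control Ter119+ pools Gata1 had ratios of -0.01 and 0.20 in Rpl5flox/+ and -0.37, -0.33 and -0.40 in Rps19flox/+. Over these 5 pools the mean of the lines was -0.13 (SE 0.17, limma adjusted p = 0.635), higher than 73.6% of genes, where the median was -0.64 and 8.46% of genes were called. With libraries rescaled the Gata1 value turned to 0.23 and the median of all genes was -0.33. Zfpm1 was lower on polysomes, with -0.97 and -1.11 in Rpl5flox/+ and -1.60, -1.21 and -1.97 in Rps19flox/+ (log2 -1.32, SE 0.17, limma adjusted p = 0.000868), and 18.8% of genes were below it.
In control Kit+ pools Gata1 had -0.32, -0.22 and -0.36 in Rpl5flox/+ and -1.19, -0.09 and -1.43 in Rps19flox/+ (log2 -0.60, SE 0.17, limma adjusted p = 0.0138), higher than 68.7% of genes. The median of all genes was -1.34 and 59.3% were called. The 2 lowest pools had polysome libraries of 1.01 and 1.83 M reads, and without the polysome libraries under 2 M reads Gata1 was -0.18 (limma adjusted p = 0.277). The Gata1 call was also lost with voom (log2 -0.32, limma adjusted p = 0.263) and with libraries rescaled (log2 -0.36, limma adjusted p = 0.11). Zfpm1 was -1.58 there (SE 0.18, limma adjusted p = 0.000107), with 43.0% of genes below it. Gata2 was -1.54 in Kit+ (SE 0.68, limma adjusted p = 0.0727) and -0.24 in Ter119+ (SE 0.69).

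**Figure D4:**
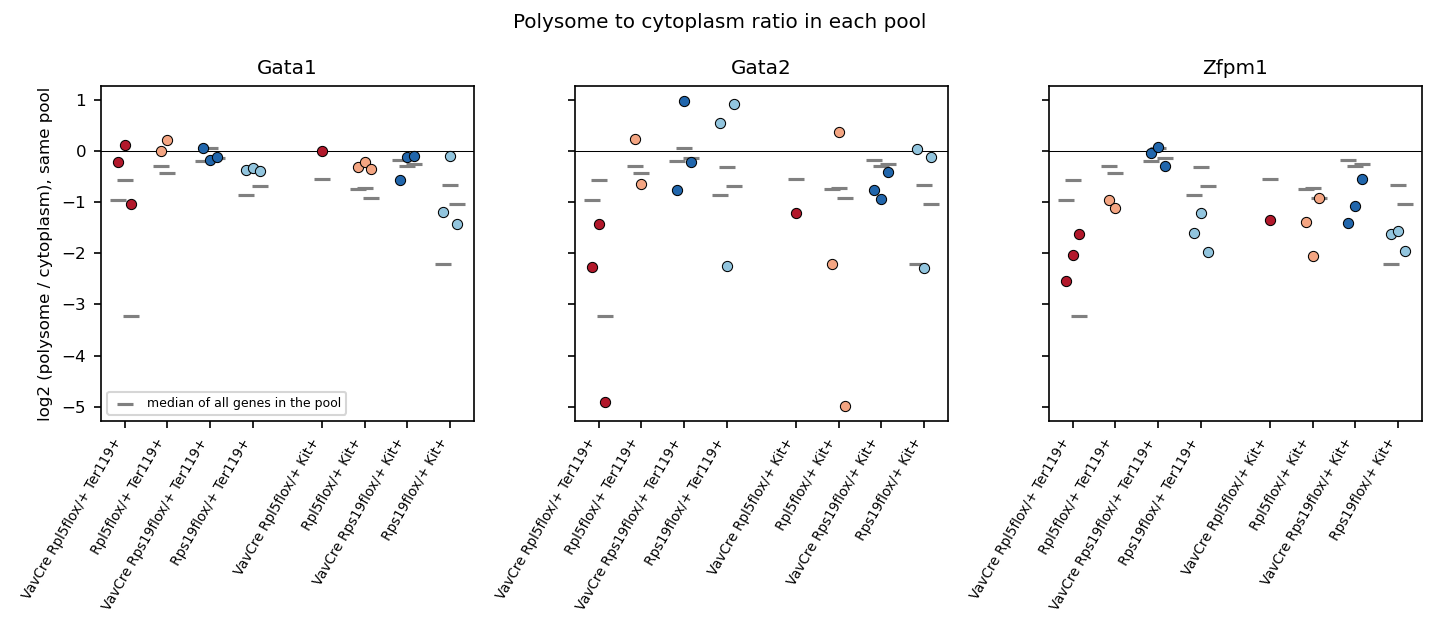
Log2 ratio of polysome to cytoplasm of each member in each pool, with a grey dash at the median of all genes of that pool. Genes with 0 polysome reads enter that median. Gata1 lies above the dash in 17 of 21 pools, and Zfpm1 in VavCre Rps19flox/+ Ter119+ pools, at -0.30 to 0.08, lies above the Rps19flox/+ Ter119+ pools, at -1.97 to -1.21.

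For Gata1 no change of the ratio passed the test in any genotype or cell type. In Ter119+ the pools labelled VavCre Rpl5flox/+ had -0.22, 0.12 and -1.04 against -0.01 and 0.20 in Rpl5flox/+, a change of -0.48 with a 95% interval of -1.22 to 0.27. The lowest of these, replicate 3, had a polysome library of 1.02 M reads with 66 Gata1 reads, and the median of all genes in that pool was -3.23. Relative to the median of its own pool Gata1 was 0.75, 0.69 and 2.19 higher in the pools labelled VavCre Rpl5flox/+ against 0.29 and 0.64 in Rpl5flox/+. Genes with 0 polysome reads entered these medians, so a difference from them depends on detection too. Of 13449 genes, 5643, 1918 and 9340 had 0 reads in the polysome libraries labelled VavCre Rpl5flox/+, against 2611 and 2100 in Rpl5flox/+. In VavCre Rps19flox/+ Ter119+ pools Gata1 had 0.06, -0.19 and -0.11 against -0.37, -0.33 and -0.40 in Rps19flox/+, a change of 0.28 with an interval of -0.38 to 0.95.
In Kit+ the change of the Gata1 ratio was 0.64 in the Rps19 line (interval -0.12 to 1.41), where the median of all genes was 1.19, and -0.17 without the polysome libraries under 2 M reads. Without replicate 2 of Rps19flox/+, which left control polysome libraries of 1.01 and 1.83 M reads, it was 1.05 (limma adjusted p = 0.0189). In the Rpl5 line, in a single VavCre pool at -0.01, it was 0.29 (interval -0.80 to 1.37). These intervals leave room for a fall of the Gata1 ratio to 0.43 times and a rise to 1.20 times its control in Ter119+ in the Rpl5 line, and for 0.77 to 1.93 times in the Rps19 line.
Few genes passed in these comparisons. The share called was 0.00918% in Ter119+ in the Rpl5 line, 0.0184% in Ter119+ in the Rps19 line, 0.287% in Kit+ in the Rpl5 line and 8.51% in Kit+ in the Rps19 line.

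No change of the Zfpm1 ratio passed the test either. In VavCre Rps19flox/+ Ter119+ pools its polysome to cytoplasm ratio was -0.05, 0.08 and -0.30, against -1.60, -1.21 and -1.97 in Rps19flox/+. The change of 1.503 (95% interval 0.83 to 2.18) had a limma adjusted p of 0.193, and 0.0257 with voom and 0.0256 without the polysome library of 1.02 M reads, which belongs to the other line. Polysome depth moved with it, at 20.5 to 33.6 M reads in VavCre Rps19flox/+ against 4.59 to 16.1 M in Rps19flox/+, and the median of all genes changed by 0.55, or by 0.24 with libraries rescaled. Relative to the median of its own pool Zfpm1 was 0.14, 0.03 and -0.17 in VavCre Rps19flox/+ against -0.74, -0.90 and -1.28 in Rps19flox/+. In the pools labelled VavCre Rpl5flox/+ Ter119+ it was -2.55, -2.04 and -1.63 against -0.97 and -1.11 in Rpl5flox/+, a change of -1.03 (limma adjusted p = 0.295) beside a median of all genes of -1.21. In Kit+ pools the changes were 0.71 in the Rps19 line and 0.09 in the Rpl5 line, and neither passed the test.

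Genes that GATA1 activates in erythroid cells were read beside the members. Of 15 measured, 15 rose in control Ter119+ against Kit+ cytoplasm, where 80.3% of all genes were called, with a median change of 3.70. In the Rpl5 line 12 of 15 fell in Kit+ cytoplasm (median -1.02, all genes 0.03, with 37.2% of all genes called), led by Epb42 (protein 4.2, log2 -2.10, SE 0.14), Slc4a1 (band 3, log2 -3.04, SE 0.22) and Hemgn (log2 -2.04, SE 0.16). In Ter119+ cytoplasm 14 of 15 fell and 1 rose (median -2.28, all genes 0.16, with 65.5% called), led by Hemgn (log2 -3.23, SE 0.18), Epor (the erythropoietin receptor, log2 -1.98, SE 0.12), Klf1 (log2 -2.19, SE 0.15) and Tal1 (log2 -2.56, SE 0.17). Rps19 line Kit+ cells had 4 higher and 2 lower (median 0.05, with 53.7% of all genes called), or 4 fell with libraries rescaled, with Fech, the last enzyme of heme synthesis, at 0.89 (SE 0.11). In Ter119+ 1 rose and 4 fell (median -0.37), near the 25.8% of all genes called, with Cited2 at 0.51 (SE 0.13) and Epor at -0.44 (SE 0.12). Klf1, Tal1 and Gfi1b also stand in the list of complex partners below.
Of 5 progenitor genes that GATA1 represses, 4 fell and 1, Lyl1, rose in control Ter119+ against Kit+ cytoplasm. In the libraries labelled VavCre Rpl5flox/+ Ter119+ Myb (log2 2.87, SE 0.21), Myc (log2 2.14, SE 0.18), Kit (log2 3.87, SE 0.52) and Cd34 (log2 1.82, SE 0.29) rose and Lyl1 fell by 1.61 (SE 0.15). In Kit+ in the Rpl5 line 2 of 5 rose, or 4 with the replicate number as a block. In the Rps19 line 3 rose and 1, Cd34, fell in Ter119+, where Myb was 2.01 higher (SE 0.21), and 2 rose, or 1 with libraries rescaled, and Cd34 fell by 1.63 (SE 0.16) in Kit+. Cd34 and Lyl1 were the 2 that rose in Rpl5 line Kit+ cells (log2 0.88, SE 0.16, and 0.37, SE 0.10). Lyl1 also stands in the next list.

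Partners of the GATA complexes moved both ways. In the comparisons that follow, the share of all genes called was 65.5% in Ter119+ and 37.2% in Kit+ in the Rpl5 line, and 25.8% in Ter119+ and 53.7% in Kit+ in the Rps19 line. In the Rpl5 line 7 of 11 fell and 3 rose in Ter119+ cytoplasm, or 6 fell with libraries rescaled, where Lmo2, the bridging protein of the complex, fell by 1.81 (SE 0.16). In Kit+ 4 fell and 4 rose, with Klf1 at -1.04 (SE 0.14), Tal1 at -0.86 (SE 0.13), Spi1, the myeloid factor PU.1 that opposes GATA1, at 0.95 (SE 0.18) and Runx1 at 0.49 (SE 0.10). Of the partners, 6 rose and 3 fell in Rps19 line Kit+ cells, with Cbfa2t3 at 1.01 (SE 0.13), Gfi1b at 0.89 (SE 0.15), Spi1 at -1.39 (SE 0.18) and Fli1 at -1.40 (SE 0.20). In Ter119+ 0 of 11 rose, or 2 with libraries rescaled, and 2 fell, or 1 with libraries rescaled, which were Spi1 (log2 -1.49, SE 0.27) and Lmo2 (log2 -0.50, SE 0.16) on the deposited scale.
FOG1 acts through the NuRD complex, the CtBP proteins and TACC3, and the list of these corepressors had 16 measured genes. In the Rpl5 line 9 fell and 3 rose in Ter119+ cytoplasm (median -0.48), or 5 rose with libraries rescaled, beside 65.5% of all genes called. Tacc3 (log2 -2.004, SE 0.13), Ctbp1 (log2 -1.64, SE 0.12) and Rbbp4 (log2 -1.86, SE 0.15) fell and Ctbp2 rose by 2.09 (SE 0.19). Ctbp2 and Ctbp1 also moved apart in Kit+ in the Rpl5 line (log2 0.67, SE 0.17, and -0.61, SE 0.09), where 3 of 16 rose and 3 fell, a share close to the 37.2% of all genes called. Rps19 line Kit+ cells had 9 higher and 3 lower, beside 53.7% of all genes called, with Mta1, Mta2 and Mta3 at 0.62, 0.56 and 0.58 (SE 0.07 to 0.09) and Chd3 at 1.20 (SE 0.20). In Ter119+ 2 rose and 5 fell, or 3 fell with libraries rescaled, beside 25.8% of all genes called, with Ctbp2 at 1.01 (SE 0.19) and Ctbp1 at -0.63 (SE 0.12).
Other GATA and FOG family genes were rare. Gata3, Gata5, Gata6 and Trps1 averaged 0.00 to 24.97 normalized counts in every cytoplasm group. Gata4, which marks liver stroma and endothelium, averaged 43.5 ± 13.5 at most (SD, n = 3), in Rpl5flox/+ Ter119+, against 18.1 ± 4.1 in the libraries labelled VavCre Rpl5flox/+ (SD, n = 3). That fall (log2 -0.86, SE 0.28, limma adjusted p = 0.0145) was the 1 call among the genes tested there, and it was lost with libraries rescaled. In Rps19 line Kit+ cytoplasm Gata4 rose (log2 0.97, SE 0.20) and Trps1 fell (log2 -1.06, SE 0.30), the 2 genes tested. None passed in Rpl5 line Kit+ (2 tested) or Rps19 line Ter119+ cytoplasm (1 tested).

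The list on translation and stability of Gata1 had 6 genes, among them Tsr2, a chaperone of the ribosomal protein RPS26, Bag1, whose translation depends on ribosomal protein dosage in mouse erythroblasts, and Hspa1a, Hspa1b and Hspa8, HSP70 genes whose products protect GATA1 protein from cleavage. Tsr2 rose in all 4 cytoplasm comparisons, though not in Rps19 line Kit+ cells with libraries rescaled, where 0 of the 6 genes rose. It averaged 415 ± 30 normalized counts in the libraries labelled VavCre Rpl5flox/+ Ter119+ and 104 ± 45 in Rpl5flox/+ (SD, n = 3 each; log2 1.92, SE 0.24), and 278 ± 67 in VavCre Rps19flox/+ Ter119+ and 121 ± 3 in Rps19flox/+ (SD, n = 3 each; log2 1.09, SE 0.24). In Kit+ its changes were 0.29 (SE 0.08) in the Rpl5 line and 0.21 (SE 0.08) in the Rps19 line. Bag1 fell in Rps19 line Kit+ cells (log2 -0.35, SE 0.09, limma adjusted p = 0.00382). Hspa8 rose in the Rpl5 line in Ter119+ (log2 0.79, SE 0.24, limma adjusted p = 0.00901). Hspa1a and Hspa1b, near-identical genes between which reads may be split, varied widely in every group and did not pass. Of the 6 genes, 2 rose in the Ter119+ comparison in the Rpl5 line, or 4 rose and 1 fell with the replicate number as a block, and 4 rose with libraries rescaled, where 65.5% of all genes were called on the deposited scale.

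The genes whose cytoplasm level was most like that of each member were taken by Pearson correlation of the deposited log2 values over the 24 cytoplasm libraries, after the mean of each cell type was taken off, among 8945 genes. For Gata1 they were Tmc6 (0.974), Aurka (0.972), Stk11 (0.972), Kcnn4 (0.972) and Gsk3a (0.97). For Gata2 they were Kcnab2 (0.957), Tmed3 (0.953), Nrros (0.95), Icam2 (0.941) and Actg1 (0.941). For Zfpm1 they were Ttll12 (0.989), Tgm2 (0.988), Rab35 (0.987), Piezo1 (0.986) and Gtpbp1 (0.985). Among the members, Gata1 and Zfpm1 had 0.839, Gata1 and Gata2 -0.832 and Gata2 and Zfpm1 -0.799. These values are descriptions, since the 24 libraries share their genotype groups and many genes move with the same groups.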

How the data were processed

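Poly(A) RNA was measured in 45 libraries, 24 of cytoplasm and 21 of polysome fractions, read as 100 bp paired ends. The authors deposited log2 variance-stabilised values of 13449 genes, aligned to mm10 per the submitters' processing notes, and the aligner, counter and transformation tool were not given in the sources used here. The deposited log2 values were turned back into counts divided by a size factor and into whole reads, and 100.0% of values came out whole within 1e-06. This scale understates changes of low genes such as Gata2.

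Tests used limma 3.58.1 (lmFit, eBayes with trend, two-sided) in R 4.3.3 on genes whose normalized counts averaged 10 or more in the fit, with Benjamini-Hochberg adjustment over all of them and a threshold of 0.05. Cytoplasm or polysome libraries of a cell type were fitted together over the 4 genotypes, and ratio tests held the pool as a block. Exact permutation tests used scipy 1.17.1 in Python 3.11.15. On data simulated for Rpl5 line Ter119+ cytoplasm, with 10950 genes, 82% of genes changed by log2 1 were recovered and 0.06% of unchanged genes were called. For the ratio change in Rps19 line Ter119+ pools, with 10905 genes, 18% were recovered at log2 1 and 73.7% at log2 2. The simulations changed 200 genes and gave every gene and fraction the same spread beyond counting error. In the data 65.5% of all genes were called in the first of these comparisons. The simulated shares therefore do not give the power or the rate of false calls in the data.

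Same-numbered libraries deviated together, every correlation over 0.1, in Rpl5 line Kit+ cytoplasm (0.234 to 0.305) and Rpl5 line Ter119+ cytoplasm (0.127 to 0.256), and not in the other genotype comparisons. Between Ter119+ and Kit+ cytoplasm they did so in Rps19flox/+ (0.131 to 0.269) and VavCre Rpl5flox/+ (0.16 to 0.392), and not in the other 2 genotypes. No pair of libraries of a group agreed within sampling noise. Members and lists were chosen with earlier results of these data known. The text names the 3 members, per list and cytoplasm genotype comparison up to 4 genes of the smallest adjusted p, all genes of a list of 5 or fewer, and the 5 genes most like each member. Some genes that this rule names are not reported here. Alternatives were voom on whole reads, log2 of the normalized count plus 1, a mean of at least 50 or no filter, rescaled libraries, only the groups compared, no pool block, the replicate block, and leaving out libraries. Their use on the counts of list genes, and the replicate block for Ter119+ against Kit+, were chosen after seeing the data.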

Additional observations from a re-analysis of the deposited data

Results flagged for a closer look

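The effect of the genotype differed between Ter119+ and Kit+ cytoplasm, by a test of the difference itself, for all 3 members in the Rpl5 line. That test called 48.4% of all genes. The difference was -1.37 for Gata1, 1.36 for Gata2 and -1.52 for Zfpm1 on the log2 scale. In the Ter119+ libraries labelled VavCre Rpl5flox/+, Rpl5 was higher than in Rpl5flox/+, against their label, and so was Rps19. In the Rps19 line the difference was -0.54 for Gata1 and -1.17 for Zfpm1, with 12.3% of all genes called. The Gata1 call there was lost on removal of any of 8 of the 12 libraries, taken singly. It was also lost with libraries rescaled (log2 -0.29, limma adjusted p = 0.257).

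The effect also differed between the lines, as the Rpl5 line minus the Rps19 line. In Kit+ cytoplasm the difference was 0.87 for Gata2 and -2.17 for Zfpm1, with 48.2% of all genes called. In Ter119+ cytoplasm it was -1.18 for Gata1, 2.38 for Gata2 and -2.52 for Zfpm1, with 41.5% of all genes called.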

How the results depend on the processing

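Directions and calls of the 3 members were kept in 427 of 462 fits that left out 1 library, in 60 of 60 results on log2 of the normalized count plus 1, in 60 of 60 with no filter and in 56 of 60 with voom on whole reads. With a mean of at least 50, 57 of 58 were kept and 2 Gata2 results gave no value. Rescaling libraries moved the median of all genes by over 0.1 in 14 of 20 comparisons, by 0.507 at most, and the share of higher calls by over 10 percentage points in 14. Causes of the changes below were not tested.

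With libraries rescaled, signs turned for Gata2 in Rps19 line Kit+ cytoplasm (-0.0854), in Ter119+ polysomes of the Rpl5 line (0.16) and the Rps19 line (-0.0375), in the control Ter119+ ratio (0.031), in the Rps19 line Ter119+ ratio change (-0.0335) and in the Rps19 line step (0.0603). Signs also turned for Gata1 in the control Ter119+ ratio (0.23) and the Rps19 line Ter119+ ratio change (-0.10). Gata1 lost its call in the control Kit+ ratio (-0.36) and in the Rps19 line step (-0.29). With voom, Gata1 lost it in the control Kit+ ratio (-0.32), Gata2 turned in Rpl5 line Ter119+ polysomes (0.62), and Zfpm1 gained it in Rps19 line Ter119+ polysomes (1.53) and ratio change (1.36).

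With the replicate number as a block, 38 of 42 results were kept. Gata1 passed in the Kit+ line difference (-0.35, limma adjusted p = 0.033), and Zfpm1 passed in Rps19 line Ter119+ polysomes (1.66, limma adjusted p = 0.0148). Gata2 turned in Rpl5 line polysomes of Kit+ (-0.0891) and Ter119+ cells (0.86). The block changed no other call of a member, and in the Rps19 line no pairing was shown between VavCre Rps19flox/+ and Rps19flox/+.

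Zfpm1 in Rps19 line Ter119+ polysomes (1.66) also passed with a mean of at least 50 (limma adjusted p = 0.0465), with only the groups compared (limma adjusted p = 0.0244) and without polysome libraries under 2 M reads (limma adjusted p = 0.00753). Gata1 in Rps19 line Ter119+ cytoplasm (-0.35) passed with only the groups compared (limma adjusted p = 0.0299). Gata2 in the control Kit+ ratio passed with no pool block (-1.54) and without those shallow libraries (-1.61). Without them the Zfpm1 ratio change in the Rps19 line in Ter119+ passed (1.503), Gata1 lost its control Kit+ ratio call (-0.18), its Rps19 line Kit+ ratio change turned (-0.17), and Gata2 turned in Rpl5 line Ter119+ polysomes (0.86) and Kit+ ratio change (-0.29).

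Leaving out 1 library gave these ranges where a call or sign changed. The Gata1 to Gata2 difference in VavCre genotypes ran from 1.78 to 2.74 and passed without replicate 1 or 2 labelled VavCre Rpl5flox/+ Ter119+. The Kit+ line difference of Gata1 ran from -0.46 to -0.25, and the Rps19 line step of Gata1 from -0.61 to -0.44. In Rps19 line Kit+ polysomes Gata1 ran from 0.62 to 1.20, Gata2 from -0.545 to 0.573 and Zfpm1 from 1.80 to 2.21. Zfpm1 in Rps19 line Ter119+ polysomes ran from 1.39 to 1.97. Gata2 ran from -0.086 to 0.147 in Rps19 line Kit+ cytoplasm, from -0.27 to 0.13 in Ter119+ cytoplasm, from -1.03 to 0.86 in Rpl5 line Ter119+ polysomes and from -0.97 to 0.98 in Rps19 line Ter119+ polysomes. Its control ratio ran from -2.20 to -0.86 in Kit+ and from -0.53 to 0.26 in Ter119+. Ratio changes of Gata2 ran from -0.29 to 2.38 in Rpl5 line Kit+, from -0.66 to 0.50 in Rps19 line Kit+ and from -0.73 to 0.85 in Rps19 line Ter119+, and its Rps19 line step from -0.331 to 0.0702. Ratio changes in Kit+ ran from -0.21 to 0.36 for Zfpm1 in the Rpl5 line and from 0.38 to 1.05 for Gata1 in the Rps19 line.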
